A study of Mus musculus with 8 samples.

Results

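Hepatocellular tumours and regenerating livers often switch back on genes that the fetal liver uses and the adult liver silences, and some of these genes are used as tumour markers. The genes followed here were *Afp*, *H19*, *Igf2*, *Gpc3*, *Igf2bp3*, *Ly6d*, *Cd24a*, *Tff3*, *Golm1* and *Peg3*, which is 10 of the 24940 genes in the deposited liver RNA-seq table. They were picked by symbol as fetal liver and tumour markers, with earlier results of these data known. All 10 were found in the table.

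The livers came from C57BL/6 males of 2 genotypes, with 4 livers each. The FxrKO livers (livers 1 to 4, genotype label Bcl6(fl/fl), FXR(homo)) lack the bile acid receptor gene *Fxr* (*Nr1h4*) in the whole body. The Bcl6LKOFxrKO livers (livers 5 to 8) share both alleles and also carry Alb-Cre. The floxed part of *Bcl6*, a transcriptional repressor gene, is thereby deleted in hepatocytes. Whether it is also deleted in other liver cells, such as bile duct cells, was not tested. The floxed *Bcl6* alleles and the loss of *Fxr* are thus common to all 8 livers, and no liver with intact *Fxr* and no Cre-only liver was analysed here, so loss of *Bcl6*, the presence of Cre and the state of these livers cannot be told apart. The age of the mice is not given in the sources used here.

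Each liver held between 7586241 and 11839503 counts on genes. A floor of 3 counts was worth between 0.253 and 0.395 CPM (counts relative to the total of the library), which covers counting error only. *Bcl6* was at 56.3, 65.2, 21.2 and 55.6 CPM in FxrKO livers and at 11.9, 4.61, 5.55 and 7.72 in Bcl6LKOFxrKO livers, so the groups were separate on the targeted gene. *Nr1h4* reads were still present, at 56.7 to 62.6 CPM and 39.4 to 48.1 CPM. The 8 hepatocyte markers gave 86000 to 92200 and 192000 to 223000 summed CPM, so hepatocyte RNA was present in every library. *Alb* made up a large part of that sum, and the list did not rise as a whole. By the rule given below 3 of its genes were called higher and 2 lower, at a median log2 change of -0.1. The 50 most counted genes took 29.8% to 31.2% of the counts in FxrKO livers and 40.7% to 44.1% in Bcl6LKOFxrKO livers. *Alb* alone took 4.04% to 5.16% and 11.9% to 13.2%. Apart from the floor, CPM values use edgeR's TMM factors unless total counts are named. These factors moved the log2 fold change of all genes up by a median of 0.16 relative to total counts alone. No pair of livers of 1 genotype agreed within sampling noise (chi-square up to 45.8 per degree of freedom).

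In Bcl6LKOFxrKO livers, *Igf2*, *Peg3*, *Ly6d*, *Cd24a*, *Tff3* and *Golm1* were higher than in FxrKO livers, and no gene of the group was lower. Calls needed an adjusted p-value under 0.05 from edgeR's quasi-likelihood test, adjusted over all tested genes, together with a log2 fold change beyond 0.5 (SE stands for its standard error). By this rule 6 of the 10 genes, all among the 7 tested, were called higher, where 14.1% of the 12340 tested genes were. Of the 10, 0 were called lower, where 9.84% of the tested genes were. DESeq2 and limma voom also called 0 lower, and 0 were lower at an unadjusted p under 0.05 (edgeR). The 10 genes and the gene lists below were chosen with earlier results of these data known. Their counts beside these shares are thus a description and not a test. *H19*, *Gpc3* and *Igf2bp3* had too few counts for the expression filter. Their values come from the same fit without the filter, and *H19* was also higher there. *Igf2* passed the filter only through the Bcl6LKOFxrKO livers, so it could enter the test only by being higher in that genotype. Of the 10 genes, 6 had every Bcl6LKOFxrKO liver above every FxrKO liver, an order that 16.1% of the tested genes showed. Of these, *H19* was not among the tested genes. None of the 10 had every Bcl6LKOFxrKO liver below, an order shown by 15.2% of the tested genes. *Afp*, a widely used liver tumour marker, was in neither set. Over all tested genes 58.9% of the calls were higher, and 37.3% with total counts alone, while the same number of the 10 genes, 6, was called higher under both scalings.

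**Figure D1:**
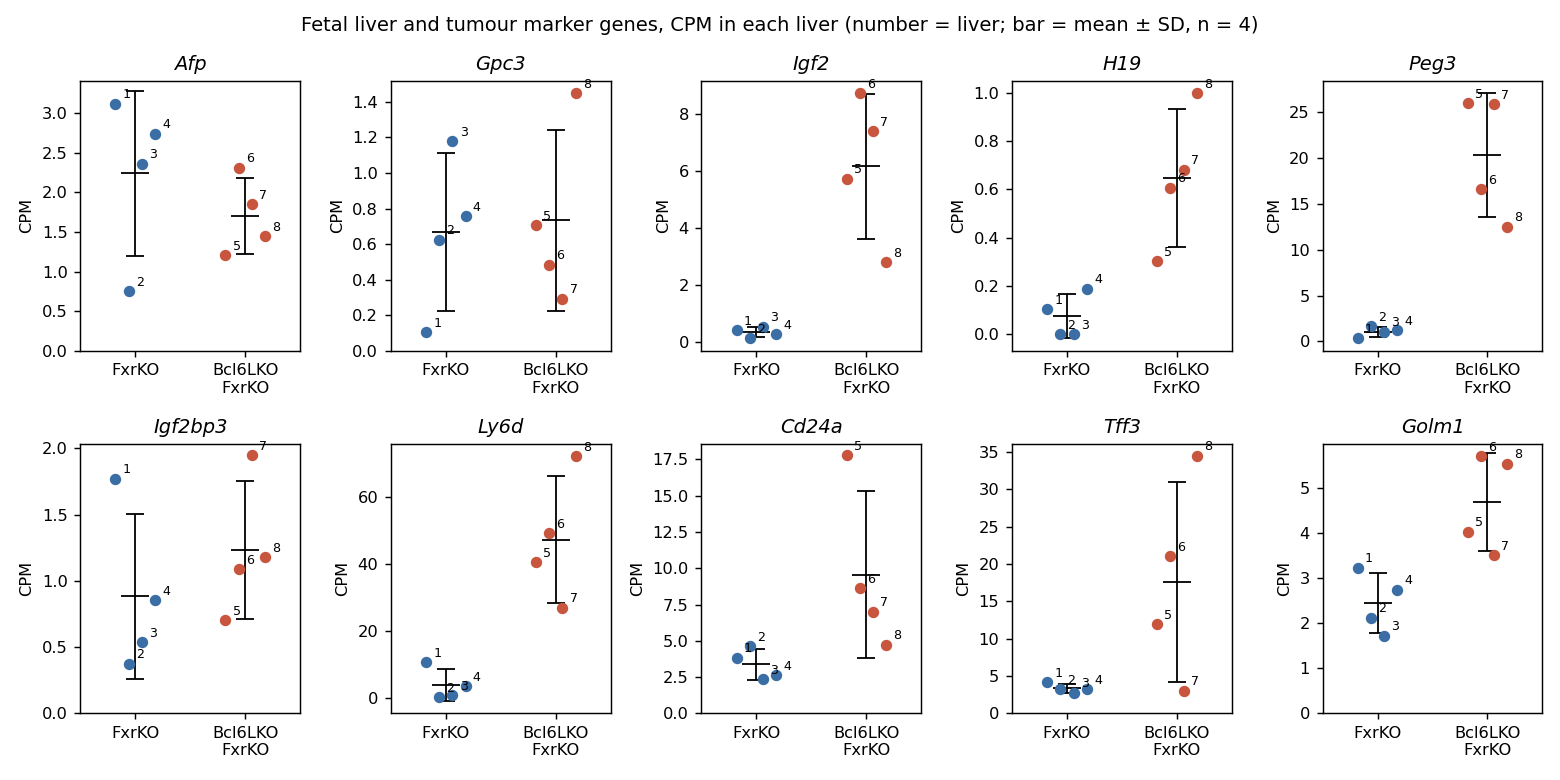
CPM (y axis, linear, a scale of its own for each gene) of the 10 genes in each liver, with FxrKO livers 1 to 4 in blue, Bcl6LKOFxrKO livers 5 to 8 in red, and the mean ± SD (n = 4) as black bars. The genotypes do not overlap for *Igf2*, *H19*, *Peg3*, *Ly6d*, *Cd24a* and *Golm1*, while for *Tff3* liver 7, at 3.02 CPM, lies among the FxrKO livers, and *Afp*, *Gpc3* and *Igf2bp3* overlap.

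**Figure D2:**
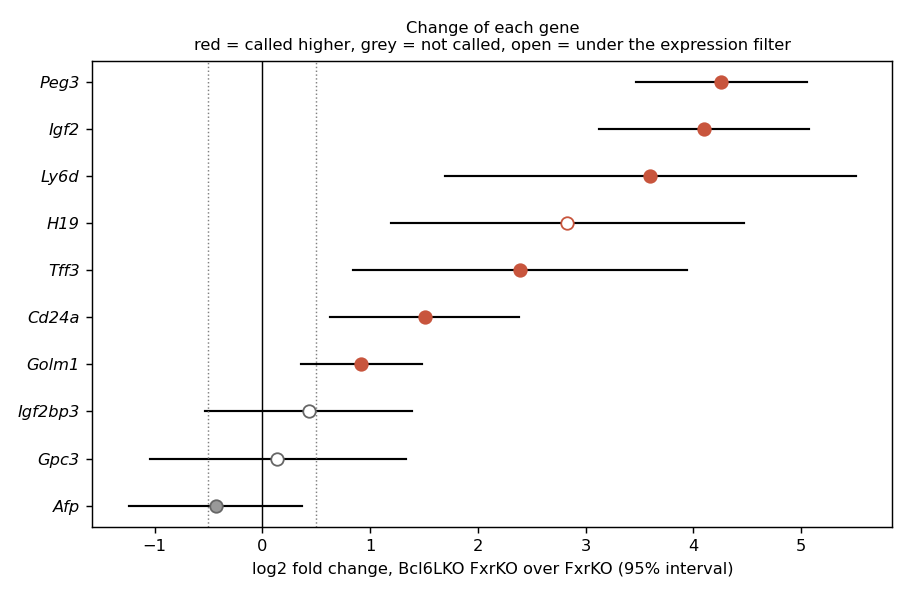
Log2 fold change (x axis, Bcl6LKOFxrKO over FxrKO, with its 95% interval) of each gene, with the 0.5 thresholds dotted. Filled red points were called higher, the filled grey point was not called, and open points come from the fit without the expression filter. The fold changes run from -0.43 for *Afp* to 4.26 for *Peg3*.

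*Afp* codes for alpha-fetoprotein, the main serum protein of the fetus, and lies beside the albumin gene in a cluster of related serum protein genes. It was counted on transcript NM_007423 (mm10 chr5:90490714-90508907, plus strand). *Afp* was at 3.12, 0.75, 2.36 and 2.74 CPM in FxrKO livers 1 to 4 and at 1.21, 2.31, 1.85 and 1.45 CPM in Bcl6LKOFxrKO livers 5 to 8. The highest and the lowest liver were both FxrKO, and the genotypes overlapped. The means were 2.24 ± 1.04 and 1.70 ± 0.48 CPM (SD, n = 4 each), and the log2 fold change was -0.43 (SE 0.37, 95% interval -1.24 to 0.37, adjusted p = 0.409, edgeR). The exact two-sided permutation p of the difference in CPM was 0.37, where 4 livers against 4 allow no p under 0.029. The counts behind these values were 6 to 30 per liver. At this depth the interval reaches no rise above 0.37 on the log2 scale, but it includes falls past the threshold.

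The neighbour of *Afp* behaved otherwise. *Alb*, which codes for the main serum protein of the adult, ends 14112 bases before the start of *Afp*. It was at 38200, 45400, 48500 and 46000 CPM in FxrKO livers and at 134000, 147000, 133000 and 128000 CPM in Bcl6LKOFxrKO livers, so that every Bcl6LKOFxrKO liver stood far above. Its log2 fold change was 1.60 (SE 0.13, adjusted p = 1.86e-06, edgeR). The Cre transgene in these mice is driven by albumin gene sequences, and whether transgene sequence adds counts to *Alb* was not tested. Of the 4 genes of the cluster, 2 were called higher and 0 lower. The other gene called was *Gc*, which codes for the vitamin D carrier, with a log2 change of 0.67 (adjusted p = 0.000973, edgeR).

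The promoters of both genes are shown because one gene is near silent and the other is among the most abundant liver transcripts. Each covers 250 bases before to 50 bases after the annotated start (RefSeq, GRCm38.p6, 5′ to 3′ on the plus strand), *Afp* at chr5:90490464-90490763 and *Alb* at chr5:90460620-90460919. Capitals mark GTTAAT, the core of the site that the hepatocyte factor HNF1 is known to bind, and TATAAA.
Afp: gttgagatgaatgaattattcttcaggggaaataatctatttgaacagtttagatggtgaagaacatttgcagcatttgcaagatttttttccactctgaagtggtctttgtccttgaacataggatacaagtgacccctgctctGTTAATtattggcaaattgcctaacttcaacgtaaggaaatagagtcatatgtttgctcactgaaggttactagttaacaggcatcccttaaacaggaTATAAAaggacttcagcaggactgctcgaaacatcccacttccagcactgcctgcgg
Alb: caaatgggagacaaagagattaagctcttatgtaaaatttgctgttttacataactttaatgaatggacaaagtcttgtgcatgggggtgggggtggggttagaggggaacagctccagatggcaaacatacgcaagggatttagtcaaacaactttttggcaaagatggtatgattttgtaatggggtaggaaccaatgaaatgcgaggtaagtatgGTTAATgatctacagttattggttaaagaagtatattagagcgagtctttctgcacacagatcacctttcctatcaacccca
Read on both strands, each promoter held 1 GTTAAT, starting 105 bases before the annotated start in *Afp* and 32 bases before it in *Alb*. GTTAAT occurred in 7.1% and TATAAA in 13.6% of the 32851 promoters of the table. A match of letters is a description and not a site.

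Several factors are known to act on *Afp*. *Zhx2* and *Zbtb20* code for repressors that silence it after birth, and hepatocyte factors of the HNF, FOXA and C/EBP families activate it. *Zhx2* was at 22.2, 24.7, 14.8 and 19.4 CPM in FxrKO livers and at 13.4, 9.47, 11.3 and 10.6 CPM in Bcl6LKOFxrKO livers. All Bcl6LKOFxrKO livers were below all FxrKO livers, with a log2 change of -0.85 (SE 0.17, adjusted p = 0.00269, edgeR). *Zbtb20* was at 4.69 ± 1.88 and 3.43 ± 0.153 CPM (SD, n = 4 each) and was not called (log2 fold change -0.44, adjusted p = 0.26, edgeR). Among the 16 regulators, all tested, 0 were called higher and 4 lower, at a median log2 change of -0.29 against 0.01 over all tested genes. The 4 were *Foxa1*, a pioneer factor (-1.64, adjusted p = 0.000405, edgeR), *Zhx2*, *Cebpa* (-0.70, adjusted p = 0.00316) and *Cebpb* (-0.62, adjusted p = 0.00328). The count of lower calls became 6 with total counts alone. Of all tested genes, 9.84% were called lower in the main fit.

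*Igf2*, *H19* and *Peg3* are imprinted: in most tissues only the copy from 1 parent is used, the paternal copy for *Igf2* and *Peg3* and the maternal copy for *H19*. *Igf2* codes for a fetal growth factor that the mouse liver stops making soon after birth. *H19* is a non-coding RNA beside it that shares its enhancers and is shut off at about the same age. The counts do not separate the parental copies.

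*Igf2* was counted on NM_010514 (chr7:142650768-142658804, minus strand). It was at 0.416, 0.125, 0.537 and 0.284 CPM in FxrKO livers and at 5.74, 8.74, 7.40 and 2.81 CPM in Bcl6LKOFxrKO livers, from 1 to 5 and 31 to 76 counts. Every Bcl6LKOFxrKO liver was above every FxrKO liver, with liver 8 the lowest of the 4. The means were 0.341 ± 0.177 and 6.17 ± 2.55 CPM (SD, n = 4 each), and the log2 fold change was 4.1 (SE 0.45, 95% interval 3.12 to 5.07, adjusted p = 2.48e-05, edgeR). The exact two-sided permutation p was 0.029, the smallest that these groups allow.

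*H19* (NR_130973, chr7:142575530-142578146, minus strand) ends 72622 bases before *Igf2* in chromosome order. Its counts were 1, 0, 0 and 2 in FxrKO livers and 3, 5, 7 and 11 in Bcl6LKOFxrKO livers, which is 0.104, 0, 0 and 0.189 CPM and 0.302, 0.607, 0.682 and 0.999 CPM. Each Bcl6LKOFxrKO liver was above each FxrKO liver, but all stood near the floor of 3 counts. The ratio of the genotypes' summed counts scaled to library size, from 26 and 3 counts, was 8.24 with a 95% counting interval of 2.52 to 42.5. Without the filter the fitted log2 fold change was 2.83 (SE 0.79, adjusted p = 0.0123, edgeR), a value that depends on the prior count at these levels. The exact two-sided permutation p was 0.029. Without FxrKO liver 4 the fitted value was 3.71. Among the Bcl6LKOFxrKO livers, liver 8 held the most *H19* and the least *Igf2*. At 3 to 11 counts of *H19* the order of these livers is uncertain, so the values cannot tell whether the 2 genes follow each other. Of the microRNA genes inside them, *Mir483* had 0 counts in every liver and *Mir675* at most 2, in libraries that select polyadenylated RNA.

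*Peg3*, which codes for a zinc finger protein active in fetal and mesodermal tissues, was counted on NM_008817 (chr7:6705960-6730419, minus strand). *Peg3* was at 0.312, 1.62, 1.07 and 1.23 CPM in FxrKO livers and at 26.0, 16.6, 25.9 and 12.5 CPM in Bcl6LKOFxrKO livers, from 3 to 13 and 137 to 266 counts. The groups were far apart, with livers 5 and 7 above livers 6 and 8. The means were 1.06 ± 0.55 and 20.3 ± 6.77 CPM (SD, n = 4 each), and the log2 fold change was 4.26 (SE 0.36, 95% interval 3.47 to 5.05, adjusted p = 4.45e-06, edgeR). The exact two-sided permutation p was 0.029.

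The antisense gene *Peg3os* (chr7:6706760-6707624, plus strand) lies inside an exon of *Peg3* in GENCODE (chr7:6703892-6711731). It had 2, 3, 3 and 3 counts in FxrKO livers and 76, 37, 108 and 42 counts in Bcl6LKOFxrKO livers. Its highest liver was liver 7 and its second highest liver 5, the same pair that led for *Peg3*. The kit marks strand but the stated counting options name none, so reads from the 2 genes cannot be told apart.

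The promoters of the counted *Igf2* and *Peg3* transcripts are shown because both imprinted genes were called higher and the silencing of imprinted genes is known to involve DNA methylation, which acts on CpG. They are at chr7:142658755-142659054 for *Igf2* and chr7:6730370-6730669 for *Peg3* (RefSeq, GRCm38.p6, minus strand, 5′ to 3′), and capitals mark CpG.
Igf2: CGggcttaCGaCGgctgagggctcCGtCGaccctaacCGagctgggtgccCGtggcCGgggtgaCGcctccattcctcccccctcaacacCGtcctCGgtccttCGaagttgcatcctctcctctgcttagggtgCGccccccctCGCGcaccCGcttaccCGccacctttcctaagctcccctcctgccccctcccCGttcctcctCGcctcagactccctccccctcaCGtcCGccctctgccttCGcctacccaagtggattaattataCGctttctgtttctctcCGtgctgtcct
Peg3: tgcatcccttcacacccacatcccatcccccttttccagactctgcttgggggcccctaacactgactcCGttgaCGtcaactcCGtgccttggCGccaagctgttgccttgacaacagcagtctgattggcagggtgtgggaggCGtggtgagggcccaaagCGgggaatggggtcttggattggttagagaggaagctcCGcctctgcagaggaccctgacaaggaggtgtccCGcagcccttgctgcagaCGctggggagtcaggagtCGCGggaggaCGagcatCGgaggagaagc
The *Igf2* sequence held 24 CpG and the *Peg3* sequence 13, where the median over 32851 promoters was 7 and the quartiles were 3 and 20. The table holds 4 *Igf2* promoters, with 2, 14, 24 and 7 CpG, and the counts do not tell which of them was used. It matched 6 of the 10 genes, *Afp*, *Igf2*, *Gpc3*, *Igf2bp3*, *Golm1* and *Peg3*, with 9 promoters in all. *H19*, *Ly6d*, *Cd24a* and *Tff3* were not matched. The 9-letter sequence TTCCTAGAA, which BCL6 is known to bind, was in none of the 9 promoters on either strand, and in 0.411% of all. TTCNNNGAA, the STAT motif that contains it, was also in none, and in 8.3% of all. These letters being absent from a short window says nothing about BCL6 at these genes.

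Other imprinted genes were counted from a list of 29, of which 14 passed the filter, 8 were called higher and 1 lower, at a median log2 change of 0.63. Over all tested genes 14.1% were called higher and 9.84% lower. Whether each gene of the list is imprinted in liver was not tested. Leaving *Igf2* and *Peg3* aside, 6 of 12 tested genes were called higher and 1 lower. The smallest adjusted p among these belonged to *Dcn*, a collagen-binding proteoglycan made mainly by fibroblasts and stellate cells. *Dcn* was at 87.1, 95.7, 101 and 132 CPM in FxrKO livers and at 218, 224, 238 and 181 CPM in Bcl6LKOFxrKO livers, without overlap (log2 fold change 1.05, adjusted p = 0.000145, edgeR). *Slc38a4*, a liver amino acid transporter, was the gene called lower, at 1120 ± 220 and 527 ± 112 CPM (SD, n = 4 each; log2 fold change -1.09, adjusted p = 0.000587, edgeR). The calls thus went in both directions within the list. *Rtl1*, *Zim3* and *Zdbf2* had no counts in any liver.

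*Peg3* and *Igf2* are also known to be used by mesenchymal cells, so the stellate and fibroblast markers are given beside them. Of these 10 markers, all tested, 7 were called higher and 0 lower (14.1% and 9.84% over all tested genes), and none was at 0. Their summed level ran from 231 to 327 CPM in FxrKO livers and from 468 to 586 CPM in Bcl6LKOFxrKO livers. *Pdgfrb* had a log2 change of 1.06 (adjusted p = 0.000347) and *Reln* of 0.77 (adjusted p = 0.0024, both edgeR). The part of these cells in the *Igf2* and *Peg3* values was not tested. In bulk liver a change in the number of cells of a type and a change in RNA per cell cannot be told apart.

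**Figure D3:**
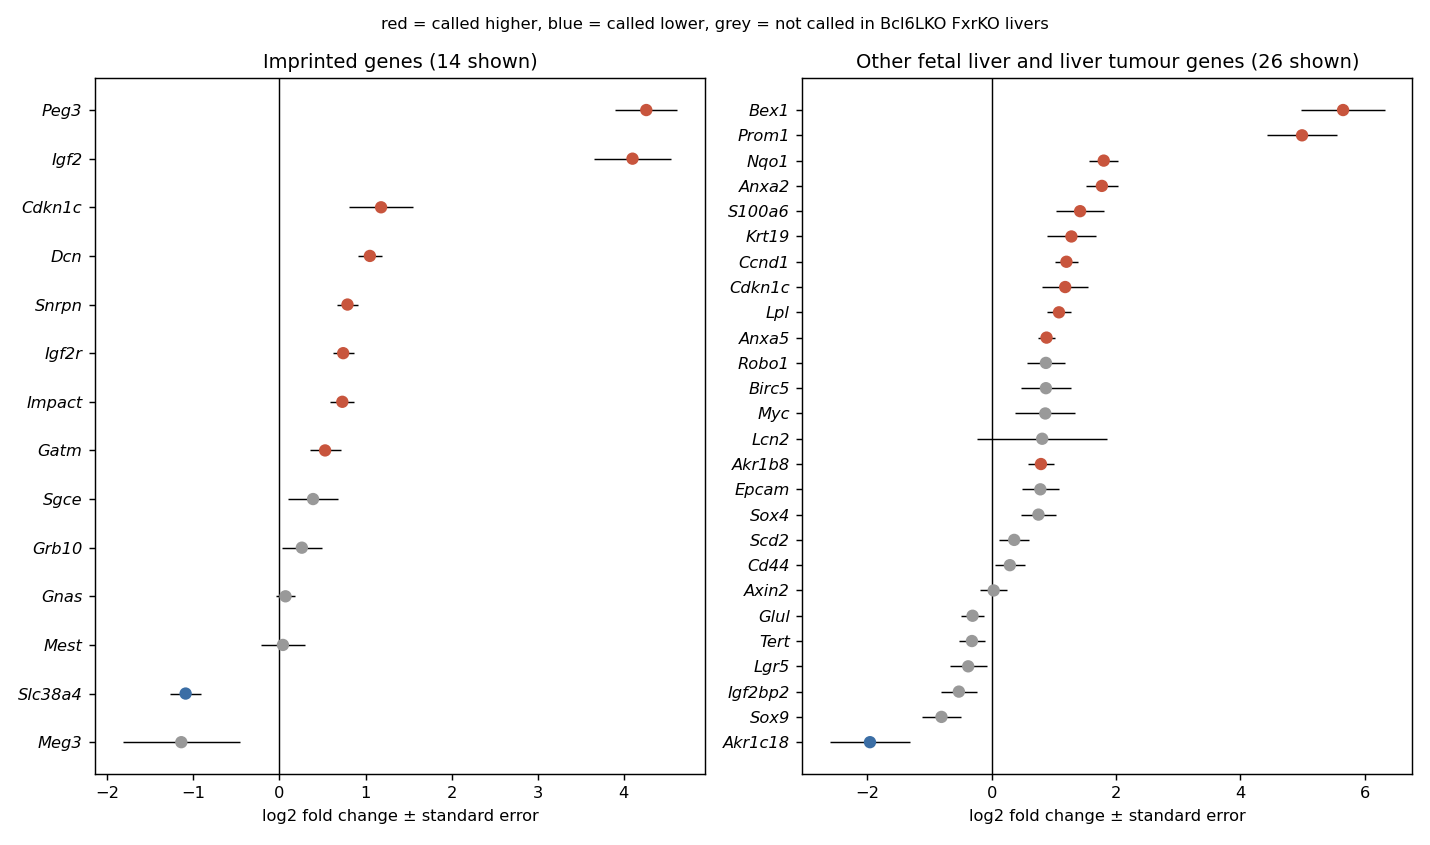
Log2 fold change ± standard error (x axis, Bcl6LKOFxrKO over FxrKO) of the tested imprinted genes (left, 14 genes) and other fetal liver and liver tumour genes (right, 26 of the tested genes), each sorted by its change. Red genes were called higher, blue genes lower and grey genes neither; *Peg3* and *Igf2* lie apart at the top on the left with 4.26 and 4.1, and *Bex1* and *Prom1* on the right with 5.65 and 4.99.

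The protein of *Igf2* signals through the receptors of *Igf1r* and *Insr* and is cleared by that of *Igf2r*, and *Igf2bp3* codes for an RNA-binding protein of fetal tissues and tumours that binds *Igf2* mRNA. *Igf2bp3* (NM_023670, chr6:49085218-49214954, minus strand) had 17, 3, 5 and 9 counts in FxrKO livers and 7, 9, 20 and 13 counts in Bcl6LKOFxrKO livers. In CPM these were 1.77, 0.375, 0.537 and 0.852 against 0.705, 1.09, 1.95 and 1.18, and the genotypes overlapped. The summed ratio was 1.37 (95% counting interval 0.866 to 2.19). Without the filter its log2 fold change was 0.43 (SE 0.46, 95% interval -0.53 to 1.39, adjusted p = 0.531, edgeR), with an exact two-sided permutation p of 0.43. At this depth the interval covers changes past the threshold in both directions.

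Of the 12 genes for IGF ligands, receptors and mRNA binders, 7 were tested. Of these, 4 were called higher and 1 lower (14.1% and 9.84% over all tested genes). *Igf1r* was at 1.47 ± 0.373 and 3.52 ± 0.288 CPM (SD, n = 4 each; log2 fold change 1.25, adjusted p = 0.00265, edgeR). *Igf2r*, itself imprinted, had a log2 change of 0.74 (adjusted p = 0.00042, edgeR). *Insr* went the other way, at 105 ± 12.9 and 71.1 ± 9.37 CPM (SD, n = 4 each; log2 fold change -0.57, adjusted p = 0.00511, edgeR). The remaining gene called higher was *Hmga1*, a chromatin protein gene, with 0.66 on the log2 scale. *Igf2bp1* and *Lin28b*, both defining genes of the fetal RNA-binding programme, had no counts in any liver. *Igf1*, the postnatal growth factor, was at 306 ± 69.0 and 248 ± 67.4 CPM (SD, n = 4 each) and was not called.

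*Gpc3* codes for a cell surface heparan sulphate proteoglycan that is used as a stain for hepatocellular carcinoma. It lies on the X chromosome (NM_016697, chrX:52272427-52613974, minus strand) and overlaps the opposite-strand gene *A630012P03Rik*. *Gpc3* had 1, 5, 11 and 8 counts in FxrKO livers and 7, 4, 3 and 16 counts in Bcl6LKOFxrKO livers. The lowest liver was FxrKO liver 1 and the highest Bcl6LKOFxrKO liver 8, with the others mixed. The summed ratio was 1.14 (95% counting interval 0.648 to 2.02). Without the filter the log2 fold change was 0.14 (SE 0.57, 95% interval -1.04 to 1.33, adjusted p = 0.887, edgeR), with an exact two-sided permutation p of 0.89. The sign of this change turned without liver 1, to -0.22, and without liver 8, to -0.45. Among the 8 glypicans and heparan sulphate sulphatases, 5 were tested, 0 were called higher and 1 lower. The gene called was *Gpc4*, the glypican with the most counts here, at 43.8 ± 3.64 and 24.8 ± 3.85 CPM (SD, n = 4 each; log2 fold change -0.82, adjusted p = 0.000459, edgeR).

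*Ly6d* and *Cd24a* code for small proteins anchored to the outer face of the cell membrane by a lipid. *Ly6d* is known from early B cells and squamous epithelium. It was counted on NM_010742 (chr15:74762056-74763567, minus strand). *Ly6d* was at 10.6, 0.25, 0.752 and 3.50 CPM in FxrKO livers and at 40.5, 49.1, 26.9 and 72.1 CPM in Bcl6LKOFxrKO livers, from 2 to 102 and 276 to 794 counts. Every Bcl6LKOFxrKO liver was above every FxrKO liver. The FxrKO livers themselves ran from below the floor of 3 counts in liver 2 to 102 counts in liver 1, while the Bcl6LKOFxrKO livers spanned 2.68-fold. The means were 3.78 ± 4.78 and 47.2 ± 19 CPM (SD, n = 4 each), and the log2 fold change was 3.60 (SE 0.81, 95% interval 1.70 to 5.51, adjusted p = 0.0154, edgeR). The exact two-sided permutation p was 0.029. Without FxrKO liver 1 the log2 fold change was 4.86.

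Per length, *Ly6d* was the most abundant of the 10 transcripts in Bcl6LKOFxrKO livers, with a mean level of 68.7 CPM per kilobase, followed by *Tff3* with 38.9. In FxrKO livers *Tff3* led with 7.41 and *Ly6d* followed with 5.51 CPM per kilobase. All others were at or below 1.86 CPM per kilobase in FxrKO livers and at or below 5.27 in Bcl6LKOFxrKO livers, both values of *Cd24a*.

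Markers of the cell types that *Ly6d* is known from are given beside it. The 7 B lymphocyte markers summed to 2.12 to 5.48 CPM in FxrKO livers and to 2.79 to 7.81 CPM in Bcl6LKOFxrKO livers, the only one tested was not called, and none was at 0. The 5 squamous markers summed to at most 0.312 and 0.636 CPM, with *Krt13* and *Krt14* at 0 in every liver. The part of B cells in the *Ly6d* values was not tested. Of the 16 genes of the Ly6 family, only 4 passed the filter. All 4, *Ly6d* among them, were called higher, where 14.1% of all tested genes were. *Ly6e*, a widely expressed member, was at 293 ± 103 and 745 ± 236 CPM (SD, n = 4 each; log2 fold change 1.35, adjusted p = 0.00352, edgeR). *Ly6a*, the stem cell antigen Sca-1, had a log2 change of 0.93 (adjusted p = 0.00429, edgeR) and *Lynx1* of 1.06 (adjusted p = 0.0334, edgeR). For *Lynx1* the genotypes overlapped. *Ly6g6c*, *Lypd2* and *Slurp1* had no counts in any liver. Members of this family resemble each other, and reads with more than 1 location had been dropped before counting.

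*Cd24a* codes for a mucin-like surface protein of progenitor cells, bile duct cells, B cells and neutrophils. It was counted on NM_009846 (chr10:43579169-43584265, plus strand). *Cd24a* was at 3.85, 4.62, 2.36 and 2.65 CPM in FxrKO livers and at 17.8, 8.62, 7.01 and 4.72 CPM in Bcl6LKOFxrKO livers. All Bcl6LKOFxrKO livers were above all FxrKO livers, but liver 8 was above FxrKO liver 2 by little. With total counts alone these 2 livers changed places, at 4.39 and 4.88 CPM, and the genotypes overlapped. The means were 3.37 ± 1.05 and 9.54 ± 5.75 CPM (SD, n = 4 each), and the log2 fold change was 1.51 (SE 0.40, 95% interval 0.63 to 2.38, adjusted p = 0.0156, edgeR). The exact two-sided permutation p was 0.029. Without liver 5, the highest, the log2 fold change was 1.01 (adjusted p = 0.024, edgeR).

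*Tff3* codes for a small secreted peptide of mucous epithelia, known from goblet cells and bile ducts. It was counted on NM_011575 (chr17:31125306-31129611, minus strand). *Tff3* was at 4.16, 3.25, 2.79 and 3.22 CPM in FxrKO livers and at 11.9, 21.0, 3.02 and 34.5 CPM in Bcl6LKOFxrKO livers. Livers 5, 6 and 8 were above all FxrKO livers, and liver 7 lay within their range. The means were 3.36 ± 0.577 and 17.6 ± 13.4 CPM (SD, n = 4 each), and the Bcl6LKOFxrKO livers spanned 11.4-fold while the FxrKO livers spanned 1.49-fold. The log2 fold change was 2.39 (SE 0.67, 95% interval 0.84 to 3.94, adjusted p = 0.0312, edgeR), and the exact two-sided permutation p was 0.11. The call was lost without any one of FxrKO livers 1 to 4 or Bcl6LKOFxrKO livers 6 and 8 (adjusted p from 0.0586 to 0.0788, edgeR), and with limma voom (log2 fold change 1.60, adjusted p = 0.17). Without liver 7 the log2 fold change was 2.74 and the adjusted p was 0.000211 (edgeR).

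The bile duct markers were compared with *Cd24a* and *Tff3* liver by liver. Of 9 cholangiocyte markers, 6 were tested, 2 were called higher and 0 lower (14.1% and 9.84% over all tested genes). These 2 were *Spp1*, which codes for osteopontin (log2 fold change 1.0, adjusted p = 0.00157, edgeR), and *Krt19*, a bile duct keratin (1.28, adjusted p = 0.0271). *Sox9*, a bile duct transcription factor, was at 4.37 ± 2.02 and 2.52 ± 0.697 CPM (SD, n = 4 each) and was not called (-0.81, adjusted p = 0.0773, edgeR). With total counts alone 1 marker was called lower. The summed level of the list was 86.6, 66.5, 59.3 and 63.1 CPM in FxrKO livers and 115, 157, 92.4 and 103 CPM in Bcl6LKOFxrKO livers, most of it *Spp1*, and no marker was at 0. Liver 7 was the lowest Bcl6LKOFxrKO liver for this sum, as it was for *Tff3*, but liver 8, the highest for *Tff3*, was the second lowest. *Cd24a* was highest in liver 5, and the sum in liver 6. The sum of the 7 neutrophil markers was also higher, at 5.16 to 12.6 and 14.3 to 24.6 CPM. Of 3 tested, *S100a9* and *Csf3r* were called higher, and *S100a8* was not called (log2 fold change 0.36, adjusted p = 0.5, edgeR). The part of these cells in the *Cd24a* and *Tff3* values was not tested. The 6 goblet cell markers summed to at most 0.5 CPM in any liver, with *Agr2* and *Clca1* at 0. Of the 11 trefoil factors and mucins, 10 were in the table and 3 were tested, and *Tff3* was the gene called.

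*Golm1* codes for a Golgi membrane protein that is shed into serum and measured as a marker of liver tumours and chronic liver disease. It was counted on NM_001035122 (chr13:59634996-59675784, minus strand). *Golm1* was at 3.23, 2.12, 1.72 and 2.74 CPM in FxrKO livers and at 4.03, 5.70, 3.51 and 5.54 CPM in Bcl6LKOFxrKO livers. The genotypes did not overlap, although FxrKO liver 1 and Bcl6LKOFxrKO liver 7 were close. The means were 2.45 ± 0.665 and 4.69 ± 1.09 CPM (SD, n = 4 each), the log2 fold change was 0.92 (SE 0.26, 95% interval 0.36 to 1.48, adjusted p = 0.0176, edgeR), and the exact two-sided permutation p was 0.029. The call was lost without FxrKO liver 2 (adjusted p = 0.0505, edgeR) or 3 (adjusted p = 0.0559). Among 18 Golgi protein genes, all tested, *Golm1* was the gene called higher and *Gorasp1*, a Golgi stacking protein gene, the gene called lower (log2 fold change -0.62, adjusted p = 0.00106, edgeR). The median of the list was 0.06 against 0.01 over all tested genes, and with total counts alone 3 of its genes were called lower.

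The 10 genes did not peak in the same liver. Liver 8 was the highest of all livers for 4 genes, livers 5 and 6 for 2 each, and livers 7 and 1 for 1 each. Liver 1 held the highest *Afp*, liver 8 the highest *H19*, *Gpc3*, *Ly6d* and *Tff3*, and liver 5 the highest *Peg3* and *Cd24a*.

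**Figure D4:**
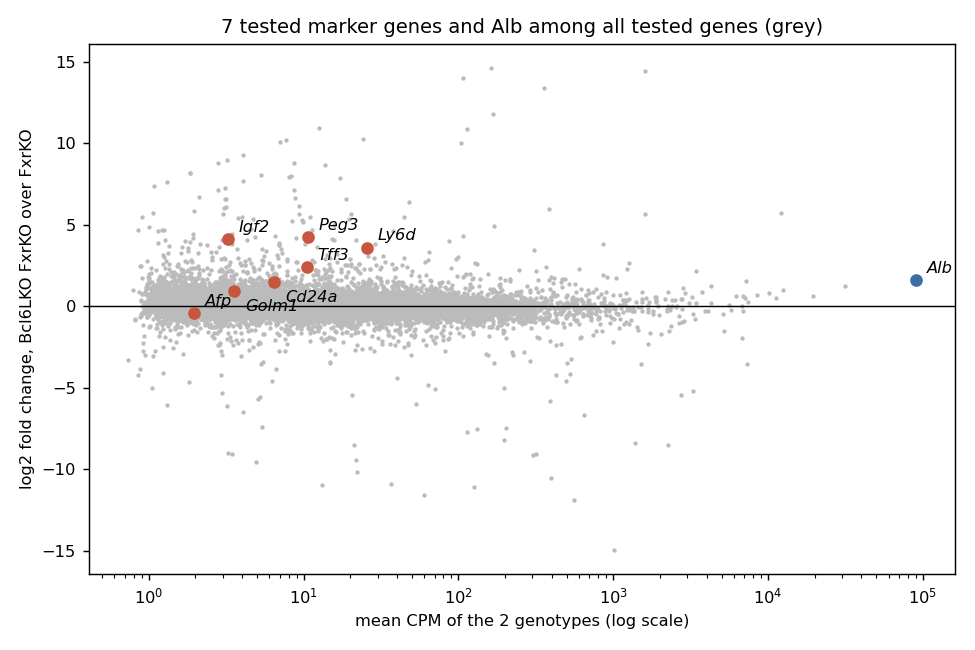
Log2 fold change (y axis, Bcl6LKOFxrKO over FxrKO) against the mean CPM of both genotypes (x axis, log scale) of the 12340 tested genes in grey, with the 7 tested marker genes in red and *Alb* in blue. The marker genes lie on the left, from *Afp* at -0.43 to *Peg3* at 4.26, and *Alb* is at the far right with 1.60.

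Other genes known from fetal liver or liver tumours were counted from a list of 38. Of these, 27 were tested, 12 were called higher and 1 lower, at a median log2 change of 0.86. Over all tested genes the shares were 14.1% and 9.84%. Among the genes called higher were *Bex1*, which codes for a small adaptor protein of progenitor cells (log2 fold change 5.65, adjusted p = 6.17e-05, edgeR), and *Nqo1*, which codes for an oxidative stress enzyme (1.80, adjusted p = 0.000109, edgeR). *Bex1* had 1, 0, 0 and 3 counts in FxrKO livers and 35, 26, 66 and 115 in Bcl6LKOFxrKO livers, so the size of its fitted change depends on the prior count. It passed the filter only through the Bcl6LKOFxrKO livers, so it could enter the test only by being higher there. *Prom1*, the progenitor and bile duct surface antigen CD133, was at 1.14, 1.62, 0.537 and 0.568 CPM in FxrKO livers and at 23.3, 60.7, 18 and 20.2 CPM in Bcl6LKOFxrKO livers (log2 fold change 4.99, adjusted p = 0.000288, edgeR). Both genes were separate between the genotypes in all 8 livers. *Akr1c18*, a steroid dehydrogenase, was the gene called lower, at 4.18 ± 4.18 and 1.10 ± 0.256 CPM (SD, n = 4 each; log2 fold change -1.96, adjusted p = 0.0444, edgeR). Its genotypes overlapped, and its FxrKO livers varied widely, with up to 109 counts in a liver. *Dlk1*, the fetal hepatoblast marker, was listed at a mean of 0 and 0.152 CPM, below the floor.

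Proliferation markers and genes of the YAP pathway, both often tied to tumour growth, were read from lists of 8 and 10 genes. The YAP list holds target genes together with pathway members such as *Yap1* and *Tead1*, so its counts are not of targets alone. Over all tested genes 14.1% were called higher and 9.84% lower. Of 7 tested proliferation markers, 3 were called higher and 0 lower. Their sum was 13.5 to 18.4 CPM in FxrKO livers and 21.1 to 39.4 CPM in Bcl6LKOFxrKO livers. *Mki67*, which codes for the Ki-67 protein of dividing cells, was at 2.85 ± 0.766 and 10.4 ± 3.80 CPM (SD, n = 4 each; log2 fold change 1.87, adjusted p = 0.000367, edgeR). Liver 7 had the lowest proliferation sum of the Bcl6LKOFxrKO livers. Of 9 tested genes of the YAP list, 3 were called higher and 0 lower, namely *Axl* (log2 fold change 0.82), *Tead1* (1.03) and *Ajuba* (1.03, adjusted p = 0.0238, edgeR). With total counts alone 1 was called lower. The standard targets *Ctgf* (0.25, adjusted p = 0.631) and *Cyr61* (0.60, adjusted p = 0.0525, edgeR) were not called. *Yap1* itself was at 73.5 ± 8.10 and 55.5 ± 3.14 CPM (SD, n = 4 each), every Bcl6LKOFxrKO liver below every FxrKO liver, but its log2 change of -0.41 (adjusted p = 0.0141, edgeR) did not reach the fold threshold.

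The fetal liver is also a site of blood formation. Of 8 tested erythroid markers 5 were called higher and 1 lower (14.1% and 9.84% over all tested genes). Their sums of 737 to 1090 and 972 to 1460 CPM overlapped, and with total counts alone 2 of them were called higher. The 8 macrophage markers, with 2 called higher, summed to 363 to 511 and 506 to 838 CPM, and the 7 endothelial markers, with 1 called higher, to 146 to 202 and 187 to 254 CPM.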

How the data were processed

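Liver RNA from 4 FxrKO and 4 Bcl6LKOFxrKO males was analysed, grouped by the sample titles, which give no pairs. The authors aligned 100 bp single-end reads of stranded polyA libraries to mm10 with STAR 2.5.2 (1 location, at most 4 mismatches) and deposited raw exon counts of each gene (HOMER 4.10; 1 transcript per gene, no strand option named). The table also gives transcript lengths, used for CPM per kilobase. The study's methods name DESeq2 for differential expression.

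In R 4.3.3, edgeR 4.0.16 (filterByExpr, TMM, robust quasi-likelihood fit, Benjamini-Hochberg over 12340 genes) was the main test, with calls at an adjusted p under 0.05 and a log2 fold change beyond 0.5. *H19*, *Gpc3* and *Igf2bp3*, under the filter, were read from the fit without it, a choice made after seeing the data. Permutation tests ran over 70 orderings. The p-values of the fits set the difference between genotypes against the spread between livers. Those of the permutation tests place the difference in means among the orderings. The script was tested on simulated data. The 10 genes and the lists were chosen with earlier results of these data known.

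Alternatives were DESeq2 1.42.0, limma 3.58.1 voom, other scalings, filters and thresholds, and each liver left out. Named were all 10 genes, *Bcl6*, *Nr1h4*, *Alb*, *Zhx2*, *Zbtb20* and up to 3 called genes per list and direction with the smallest adjusted p, of which 1 is not reported here. *Cebpb*, *Hmga1*, *Igf1*, *Lynx1*, *Prom1*, *Dlk1*, *Sox9*, *S100a8*, *Yap1*, *Ctgf*, *Cyr61*, *Peg3os*, *Mir483*, *Mir675* and the genes given at 0 were named after their values were seen. Promoters are RefSeq's for GRCm38.p6.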

Additional observations from a re-analysis of the deposited data

Results flagged for a closer look

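No value stood apart from its group by Dixon's test in the 19 sets of 4 livers that had more than 3 counts in any liver.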

How the results depend on the processing

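The values of *Igf2*, *Peg3*, *Ly6d*, *Cd24a* and *H19* kept their direction and stayed past the threshold in every alternative that tested them, with log2 fold changes from 3.86 to 4.37, 3.95 to 4.50, 3.24 to 4.86, 1.01 to 1.74 and 2.47 to 3.71. *Afp* stayed uncalled, from -0.70 to -0.25 (adjusted p from 0.111 to 0.691). Over all 10 genes, 128 values kept their side of the threshold, 10 lost it and 2 changed sign. The 10 were of *Tff3* (no filter, adjusted p = 0.07, and those given beside it) and of *Golm1*. *Gpc3* changed sign without FxrKO liver 1 (-0.22) and without Bcl6LKOFxrKO liver 8 (-0.45), and leaving out 1 liver moved it from -0.45 to 0.56. Requiring 10 counts or more in each liver left 3 of the 10 genes called higher, since *Igf2*, *Peg3*, *Ly6d* and *Afp* were no longer tested. Leaving out 1 liver gave 4 to 6 called higher. Over all genes, total counts alone gave 2128 lower calls against 1214 and 1267 higher against 1739. Which scaling is nearer the truth for these livers was not tested. The other fits gave 1437 to 1994 higher and 1009 to 1665 lower calls. Leaving out 1 liver gave 1487 to 1722 higher and 1068 to 1357 lower. No paired analysis was possible because no label pairs the livers, and the meaning of the serial numbers in the titles is not given. Depth limits *H19*, *Gpc3* and *Igf2bp3*, with at most 20 counts in any liver.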
